A study of Mus musculus with 8 samples.

Results

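The genes described here encode the proteins of the cytosolic ribosome. They were taken from the deposited gene table by name: Rpl or Rps followed by a number, or Rpsa, Rplp0, Rplp1 or Rplp2, leaving out names ending in -ps (pseudogenes) and the Rps6k kinases. This gave 87 of 21959 listed genes, and 81 of them had enough reads to be tested. Of the 87 names, 52 start with Rpl (large, 60S subunit) and 34 others with Rps or Rpsa (small, 40S subunit). The remaining name is Rps19bp1, a binding partner of Rps19 and not a subunit. The naming rule also took in the retrogenes Rps23rg1 and Rps27rt, which are counted here with the 34. Genuine subunit genes with other names (such as Fau and Rack1) are given separately.

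The question was how the plant alkaloid isoliensinine affects sleep. Polyadenylated RNA was sequenced in 8 libraries from wild-type mice, 4 labelled Model with the treatment PCPA (para-chlorophenylalanine, which blocks serotonin synthesis) and 4 labelled IsoL with the treatment isoliensinine. According to the design text the mice were female and of ICR, an outbred stock, dosed for 7 days and given pentobarbital 40 minutes after the last dose, which both groups would share. It names the hypothalamus as the tissue taken, but the tissue label is brain. Isoliensinine was given at 12.5, 25 and 50 mg/kg. Which of these doses was sequenced, whether the IsoL mice had PCPA too, and whether each library is a separate mouse is not stated in the labels, so a p-value covers only variation among these libraries, possibly technical. Untreated mice were not analysed here, and every direction below is IsoL relative to Model.

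Each ribosome holds 1 copy of nearly all of its proteins, so cells make them in matched amounts. Copies that are not assembled are degraded. Ribosomal protein messenger RNAs typically begin with a C followed by a run of pyrimidines, the TOP element, through which the mTOR kinase and the binding protein Larp1 control their translation. Their genes are also the most prolific source of processed pseudogenes in mammals, and these intronless copies can look nearly identical to the parent messenger RNA. In neurons, ribosomal protein messenger RNAs are also found in axons and dendrites.

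The start of the coding sequence shows how closely such copies follow their parents. The first 90 coding bases are shown for Rpl26 and Rps18, whose libraries scattered widely, and for Rpl3, whose IsoL libraries split. Rpl8 is shown as a member without such copies in this stretch. They were picked as examples. Across tested members, the share of 100-base stretches found elsewhere had a Spearman correlation of 0.05 with the scatter between libraries of a group. Capitals mark bases covered by a stretch of 50 bases that occurs without mismatch in another gene of the mouse GENCODE M21 annotation (GRCm38), which is the source of these sequences.
Rpl26: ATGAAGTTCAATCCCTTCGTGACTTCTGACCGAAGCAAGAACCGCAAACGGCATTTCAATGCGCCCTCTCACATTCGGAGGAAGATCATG
Rpl3: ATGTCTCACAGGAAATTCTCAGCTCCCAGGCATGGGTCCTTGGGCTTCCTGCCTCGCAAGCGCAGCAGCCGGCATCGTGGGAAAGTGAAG
Rps18: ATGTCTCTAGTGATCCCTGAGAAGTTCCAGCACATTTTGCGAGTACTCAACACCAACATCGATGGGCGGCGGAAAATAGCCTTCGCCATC
Rpl8: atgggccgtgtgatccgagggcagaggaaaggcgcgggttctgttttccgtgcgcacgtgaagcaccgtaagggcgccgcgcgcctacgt
In this window Rpl26 shared such stretches with 4 other genes, Rpl3 with 6, Rps18 with 7 and Rpl8 with 0. Of the 87 members, 86 were matched to GENCODE by identifier. Among the 81 tested members, 74 shared at least 1 stretch of 100 bases with another gene, and 59 had at least 99% of their coding bases covered by shared stretches of 50 bases. Rpl21 shared 100-base stretches with 40 other genes, Rpl7a with 37 and Rps2 with 36. The sources used here do not give how the authors' counting treated reads that fit several genes, so the counts of most members are uncertain in this respect.

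Promoters were searched for a short pyrimidine run near the start, as a letter match that does not show where a TOP element begins. RefSeq promoters (GRCm38.p6, 250 bases before to 50 after the start) were matched by symbol for 67 of the 87 members. These 67 include the 6 members that were not tested. The letters CTCTTT lay on the gene's own strand within 10 bases before to 20 after the start in 7 of 67 members (10.4%) and in 1.1% of 11382 other tested genes. These 7 are shown from 30 bases before to 20 after the start, 5′ to 3′ on the gene's strand, with CTCTTT in capitals.
Rpl18 (chr7:45718041-45718090, + strand): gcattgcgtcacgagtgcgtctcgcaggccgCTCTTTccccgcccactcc
Rpl28 (chr7:4792935-4792984, + strand): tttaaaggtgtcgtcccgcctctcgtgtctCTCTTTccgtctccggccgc
Rpl35 (chr2:39005112-39005161, - strand): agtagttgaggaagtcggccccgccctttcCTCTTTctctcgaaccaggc
Rpl35a (chr16:33056452-33056501, + strand): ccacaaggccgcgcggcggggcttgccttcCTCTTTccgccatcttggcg
Rps26 (chr10:128626487-128626536, - strand): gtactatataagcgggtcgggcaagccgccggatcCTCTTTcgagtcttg
Rps6 (chr4:86857348-86857397, - strand): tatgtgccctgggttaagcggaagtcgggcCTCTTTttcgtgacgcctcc
Rps9 (chr7:3704011-3704060, + strand): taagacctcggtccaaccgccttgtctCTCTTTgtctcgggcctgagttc
Over the whole 300-base window and both strands, the Ets-type core CCGGAAG was present in 38.8% of members and 17.8% of other tested genes. The palindromic motif bound by ZBTB33 (Kaiso) was present in 9.0% and 1.0%, the YY1-type AAGATGGC in 9.0% and 4.6%, and the Sp1-type GGGCGG in 61.2% and 67.1%. These are matches of letters in a window and were not tested. The 7 genes printed had log2 changes from -1.81 (Rpl35a) to -0.01 (Rpl28), and none of them passed the test.

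Libraries held 14262836 to 21620466 counts, so 3 counts correspond to 0.139 to 0.210 CPM, a floor that covers counting error only. CPM are counts scaled to a common library size, for all values below with TMM. The hypothalamus marker list (9 genes, among them Hcrt and Pmch) summed to 190.3 to 218.3 CPM in Model and 69.7 to 146.1 CPM in IsoL, with all 9 genes detected in each group. The choroid plexus list (6 genes, among them Ttr) summed to 23.4 to 34.4 CPM in Model and to 723.1, 621.8, 82.1 and 32.7 CPM in IsoL 1 to 4. The cortex and hippocampus list (5 genes) was at 48.6 and 37.6 CPM in IsoL 1 and 2 and at 9.93 to 13.8 CPM elsewhere. The neuron list ran from 4074.6 to 4845.8 CPM, highest in Model 2, and the oligodendrocyte list from 13721.3 to 14098.5 CPM in Model and from 13960.1 to 15418.3 CPM in IsoL. The astrocyte list did not overlap between groups (2020.7 to 2062.8 CPM in Model, 2107.0 to 2296.4 CPM in IsoL), and the microglia list was at 191.6 to 227.1 CPM in Model and 222.3 to 262.0 CPM in IsoL. All 6 genes of each of the astrocyte, microglia and oligodendrocyte lists had a log2 change above 0, and 0 of them passed. All 9 genes of the hypothalamus list had a log2 change below 0, and 1 passed. The share of mitochondrially encoded reads was 5.64% in Model 2 and 4.69 to 5.11% in the other 7 libraries. The part of these differences in the results below was not tested, and in bulk tissue fewer cells of a type and less RNA per cell cannot be told apart.

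Of the 81 tested ribosomal protein genes, 75 had a fitted change below 0, most of them small, and 1 passed the test. By edgeR's quasi-likelihood test with an adjusted p of at most 0.05, 1 member fell, 0 rose and 80 of the 81 did not pass. The count of 1 held without Model 3, was 2 without Model 2, and was 0 when any of the other 6 libraries was left out. Over all 14536 genes tested, 0.275% were called, and 0.158% were called lower. At an unadjusted p under 0.05, 16 members (19.8%) were counted against 13.2% of all genes, 15 of them lower (18.5% against 6.78%) and 1 higher (1.23% against 6.44%). The fitted change was below 0 for 75 members (92.6%) against 50.5% of all genes, and the members' median log2 change was -0.09 against -0.0015. With limma voom, which weights libraries by quality, 55 members were below 0 and the median was -0.037. In 8 members (9.88%) all 4 IsoL libraries lay below all 4 Model libraries, against 4.42% of all genes, and in 1 (1.23%) above, against 4.05%.

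**Figure D1:**
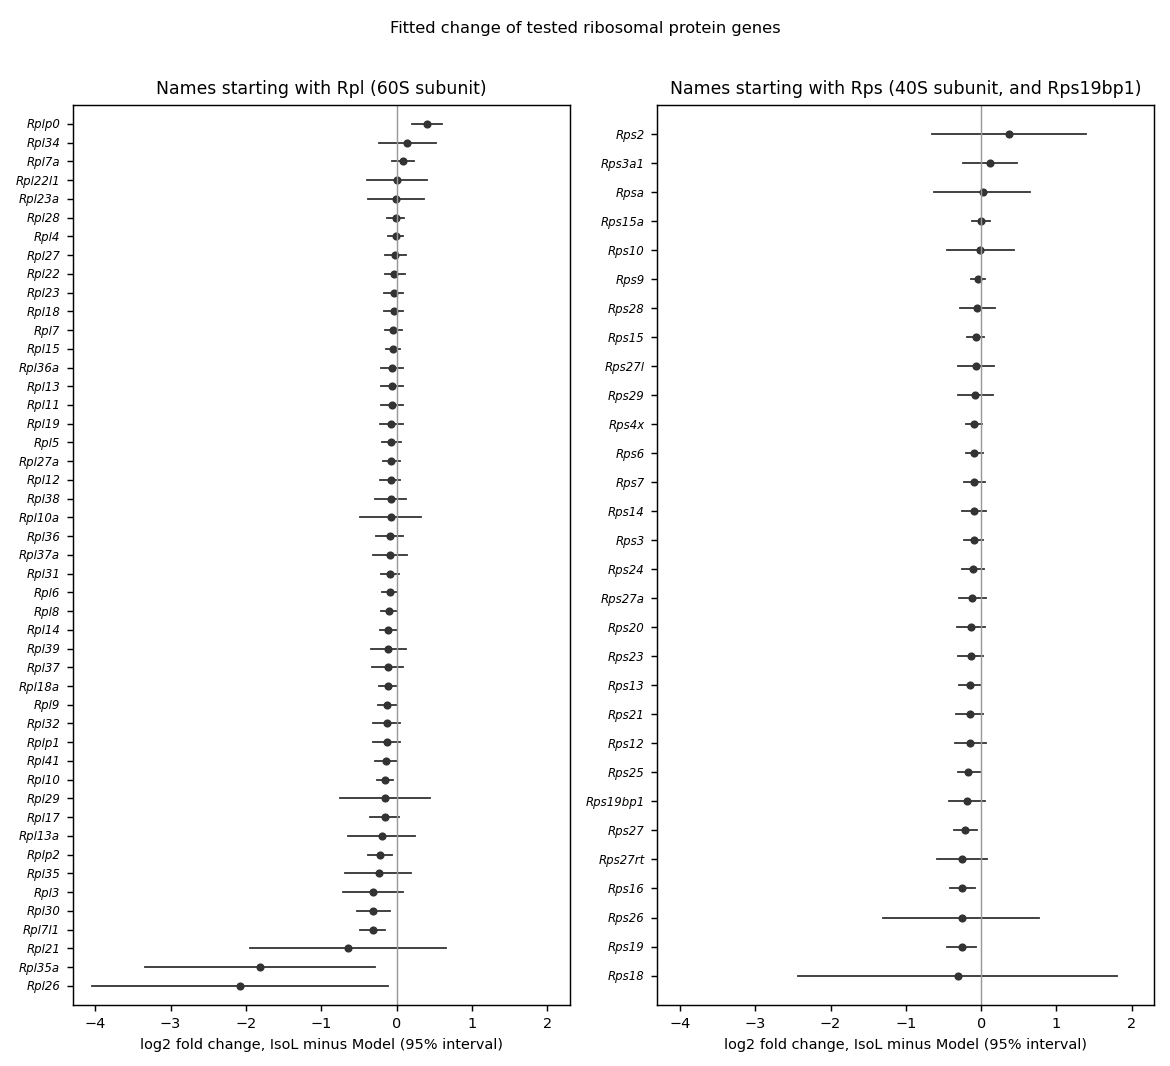
Fitted log2 fold change (x axis, IsoL minus Model) of 77 of the 81 tested members with its 95% interval, 47 names starting with Rpl on the left and 30 starting with Rps, Rps19bp1 included, on the right. Most points sit just left of 0, and Rpl26, Rpl35a, Rps18, Rpl21, Rps26 and Rps2 have intervals several times wider than most.

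The direction leaned on 1 library. Model 2 was the highest of the 8 libraries for 64 of 81 members (79%), while it was the highest for 23.5% of all tested genes. The median of the members' log2 CPM, each centred on its own mean, was 0.045, 0.216, -0.001 and -0.034 in Model 1 to 4 and -0.107, -0.034, -0.016 and -0.04 in IsoL 1 to 4. Model 2 stood highest, IsoL 1 lowest, and the other 6 libraries overlapped between the groups. IsoL 1 was the lowest library for 36 members. Without Model 2 the members' median log2 change was -0.033 and 58 of 81 were below 0. Without IsoL 1 the median was -0.07, and 10 members in place of 16 had an unadjusted p under 0.05.

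The members' share of all counts was 0.853, 0.962, 0.819 and 0.818% in Model 1 to 4 and 0.759, 0.804, 0.831 and 0.818% in IsoL 1 to 4. The group means were 0.863% ± 0.068 (SD, n = 4) and 0.803% ± 0.0312 (SD, n = 4), and the libraries of the groups overlapped. The difference was -0.0602 percentage points, and -0.0271 without Model 2. Both subunits were highest in Model 2 and lowest in IsoL 1: the Rpl median was 0.197 in Model 2 and -0.099 in IsoL 1, and the Rps median 0.259 and -0.139. Of the 47 tested Rpl genes 44 were below 0 with a median of -0.09, and of the 33 tested 40S genes 30 were below 0 with a median of -0.10.

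**Figure D2:**
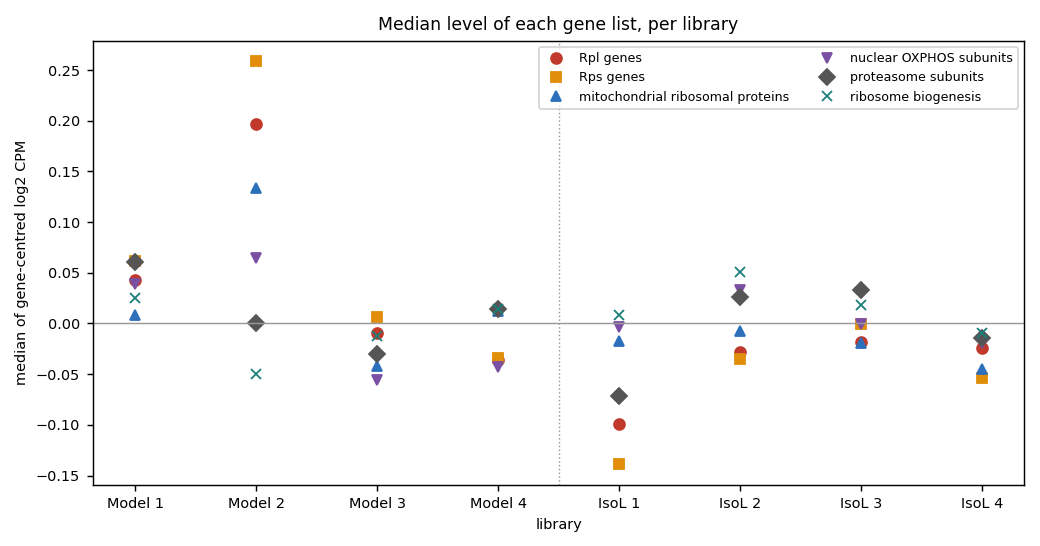
Median over each gene list (y axis) of log2 CPM centred on each gene's mean, per library (x axis), for 60S and 40S genes and 4 comparison lists. Rpl and Rps genes are highest in Model 2 (0.197 and 0.259) and lowest in IsoL 1 (-0.099 and -0.139). Mitochondrial ribosomal proteins (0.134) and nuclear oxidative phosphorylation subunits (0.065) also peak in Model 2, while proteasome subunits (-0.00) and ribosome biogenesis genes (-0.05) do not.

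Among the proteins of the stalk, the flexible arm of the 60S subunit that recruits elongation factors, Rplp0 had the highest log2 change of the 81 tested members, 6 of which were above 0. Rplp0 anchors the stalk and carries the Rplp1 and Rplp2 dimers. It was at 92.7, 119.7, 89.4 and 89.9 CPM in Model and 122.4, 123.8, 132.8 and 138.3 CPM in IsoL. Every IsoL library was above every Model library, with Model 2 close below. The log2 change was 0.40 ± 0.09 (SE) and did not pass (edgeR adjusted p = 0.0957). It passed in DESeq2 (adjusted p = 0.00225), in limma voom (adjusted p = 0.00523) and in edgeR without Model 2 (adjusted p = 0.000596). Rplp2 pointed the other way, with 41.8, 49.5, 39.3 and 40.3 CPM in Model and 37.9, 35.9, 36.5 and 36.6 CPM in IsoL (log2 -0.22 ± 0.07 SE, edgeR adjusted p = 0.229). The other two stalk genes, Rplp1 and Rpl12, had log2 changes of -0.13 and -0.08 with overlapping libraries.

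Rpl7l1, a paralog of Rpl7 linked to ribosome assembly, was the other member near the threshold. It was at 47.6, 43.6, 43.8 and 46.5 CPM in Model and 35.6, 31.8, 37.9 and 40.2 CPM in IsoL, with no overlap. Here Model 2 was the lowest Model library, unlike in most members. The log2 change was -0.32 ± 0.07 (SE; edgeR adjusted p = 0.0935), while DESeq2 (adjusted p = 0.017) and limma voom (adjusted p = 0.0446) called it lower. It shares 1.7% of its 100-base stretches with other genes. Rpl7 itself had a log2 change of -0.05 with a 95% interval of -0.16 to 0.07.

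**Figure D3:**
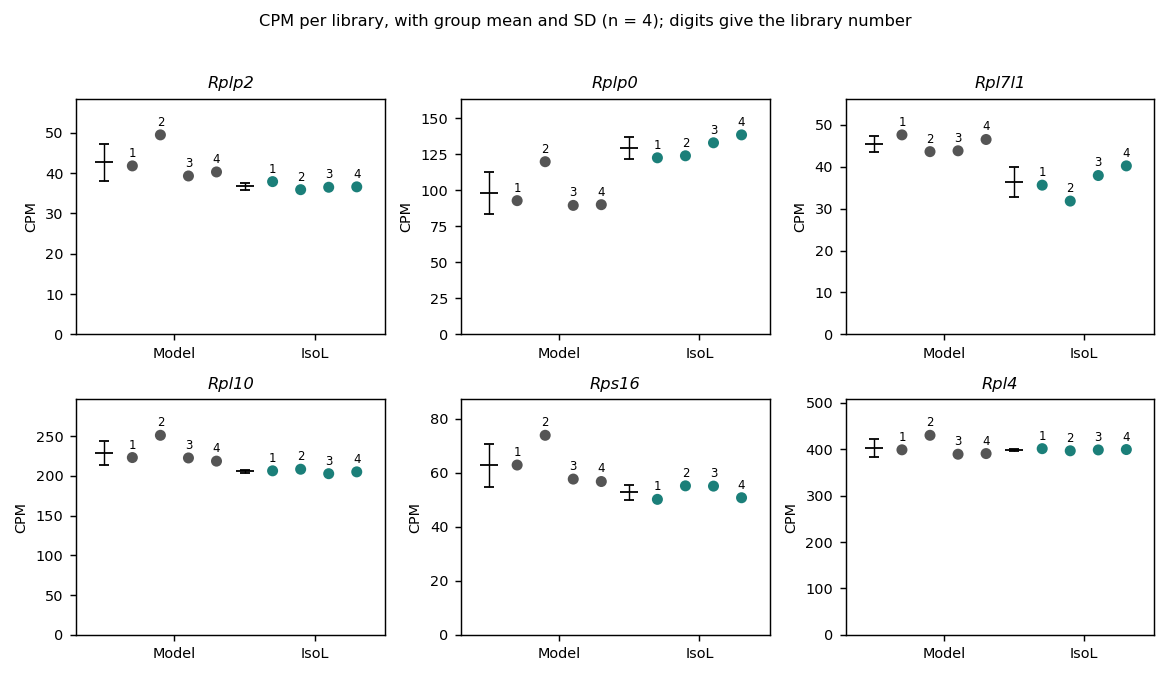
CPM per library (y axis, from 0) for 6 members, Model in grey and IsoL in green, with the mean and SD of each group (n = 4) to the left of its points. Rplp2, Rpl7l1, Rpl10 and Rps16 are lower in every IsoL library, Rplp0 is higher in every IsoL library, and Rpl4 overlaps.

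At the peptidyl transferase core, where peptide bonds form, Rpl10 was at 223.0, 251.0, 222.5 and 218.5 CPM in Model and 206.3, 208.3, 202.7 and 205.0 CPM in IsoL. All IsoL libraries were lower, by a log2 change of -0.15 ± 0.05 (SE; edgeR adjusted p = 0.209). Rpl10 joins the 60S subunit late in its assembly. Rpl8 had a log2 change of -0.10 (95% interval -0.21 to 0.01). Rpl3 was at 355.7, 339.2, 324.9 and 340.6 CPM in Model and 215.9, 214.5, 329.1 and 336.9 CPM in IsoL. IsoL 1 and 2 were low together, while IsoL 3 and 4 lay within the Model range (log2 -0.31, edgeR adjusted p = 0.486).

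The genes lining the tunnel through which the new peptide leaves were all below 0 (8 of 8, median log2 -0.10), close to the share over all members (75 of 81, median -0.09), and 0 of them passed. Rpl4, the member with the most reads per library, was at 398.8, 430.1, 389.3 and 390.7 CPM in Model and 401.3, 396.7, 398.6 and 399.4 CPM in IsoL. Its log2 change was -0.01 with a 95% interval of -0.11 to 0.08. Rpl26 is described with the scattered members. Rpl5 and Rpl11, which with 5S ribosomal RNA form the particle that can bind Mdm2 and so stabilise p53, had log2 changes of -0.07 and -0.06.

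In the small subunit, Rps16, Rps19 and Rps27 were among the genes with the smallest p, and none of the 3 passed. Rps16 was at 62.8, 73.8, 57.6 and 56.7 CPM in Model and 50.1, 55.1, 55.0 and 50.7 CPM in IsoL (log2 -0.25, edgeR adjusted p = 0.196). The groups did not overlap, by a small gap. Rps19 (log2 -0.26) and Rps27 (log2 -0.21) overlapped between groups by 1 or more libraries.

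Rps19, Rps24, Rps26, Rpl5, Rpl11 and Rpl35a are among the genes mutated in Diamond-Blackfan anaemia, in which red cell precursors fail. All 11 such genes on the list were below 0 with a median log2 change of -0.11, and 0 passed, against 75 of 81 below 0 over all members. Rps6, the substrate of the S6 kinases, was at 238.6, 260.9, 231.4 and 227.4 CPM in Model and 215.6, 226.8, 231.8 and 225.9 CPM in IsoL (log2 -0.09, 95% interval -0.20 to 0.02). Rps27a, made as a fusion with ubiquitin, had a log2 change of -0.12. Rps10, Rps20 and Rps3, which are ubiquitinated when ribosomes collide, had log2 changes of -0.02, -0.14 and -0.10, and 0 of the 3 passed. The X-linked members Rpl10, Rpl36a, Rpl39 and Rps4x ran from -0.15 to -0.06. Rpl38, Rps25, Rpl13a and Rpl10a, studied for selective translation of certain messages, ran from -0.20 to -0.08.

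Of the paralogs other than Rpl7l1, Rpl22l1 was at 4.54 to 8.89 CPM and Rps27l at 8.42 to 11 CPM, and the retrogene Rps27rt was at 4 to 6.05 CPM. The other 6 members were not tested. Rpl10l, a paralog known from testis, had 0 counts in all 8 libraries, Rpl39l had 1 count in 1 library, and the retrogene Rps23rg1 had 0 or 1. Rpl3l, a paralog known from heart and skeletal muscle, had 3 to 9 counts, Rpl36al had 0 to 10 and Rpl24 had 2 to 15. Rpl24 is a regular 60S subunit, and its counts stand far below those of other subunits.

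Levels of the tested members were uneven. Per length, by the deposited FPKM averaged over 8 libraries, they ran from 0.963 (Rps10) to 297.0 (Rps15), a 308.4-fold range, with a median of 45.6. Highest among 60S genes were Rplp1 (236.5), Rpl4 (199.5) and Rpl8 (153.3), and among 40S genes Rps15 (297.0), Rps3a1 (283.8) and Rps6 (146.4). Lowest among 60S genes were Rpl34 (1.24), Rpl29 (1.63) and Rpl13a (1.77), and among 40S genes Rps10 (0.963), Rps18 (7.56) and Rps28 (11). Rps19bp1, not a subunit, was at 9.89. In all, 12 members were under 10 FPKM and 12 over 100. The deposited gene length counts far more than the mature messenger RNA for some members (6256 bases for Rps24, whose principal GENCODE transcript has 1613). With the principal GENCODE transcript as length, the range was 2.51 to 374.2, or 149.1-fold.

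Across the tested members, the share of 100-base stretches held in common with other genes had a Spearman correlation of 0.01 with mean FPKM and 0.09 with the level per principal transcript. These are descriptions over genes measured in the same libraries. Rpl8, with 1.7% shared, and Rps3a1, with 45.3%, both stood near the top. The 12 members under 10 FPKM had a median of 50.5% shared, and those at or above 10 FPKM 36.8%. Members sharing under 10% of such stretches (14 genes) had a median log2 change of -0.10, and the other 67 a median of -0.09. The share is taken over the whole principal transcript, so a low share need not mean an uncopied coding sequence. Shared 100-base stretches covered 87.4% of the coding bases of Rps20 (5.9% shared) and 70.6% of those of Rpl39 (1.8% shared). For Rpl8 (1.7% shared) they covered 14.5%.

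**Figure D4:**
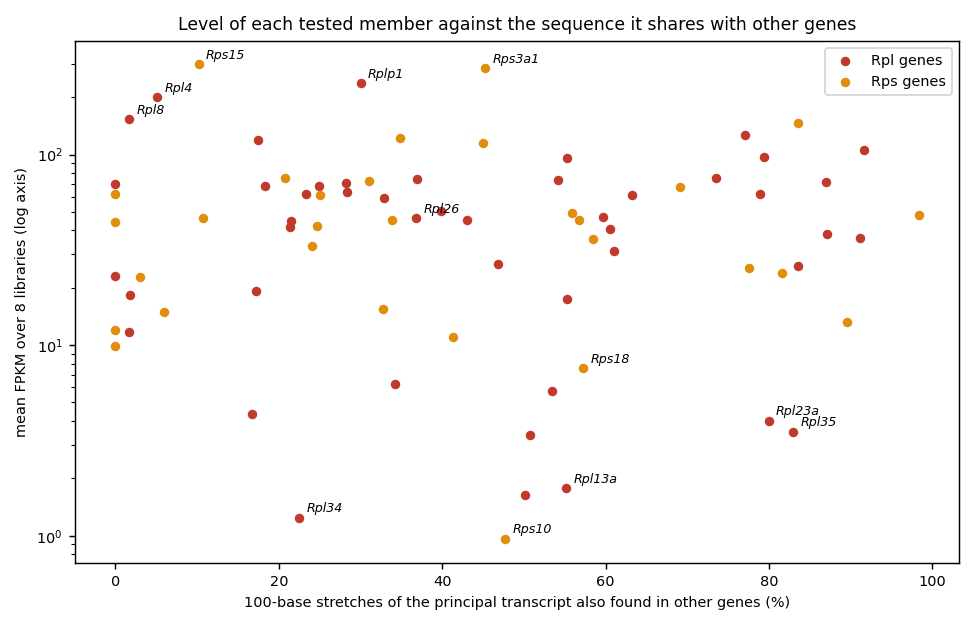
Mean FPKM over 8 libraries (y axis, log scale) against the percentage of each principal transcript's 100-base stretches that occur in other genes (x axis), 1 point for each of 77 tested members. Members with much shared sequence span high and low levels, and those under 10% shared hold no member below 9.89 FPKM: Rps15 is at 297.0 FPKM with 10.2% shared and Rps10 at 0.963 FPKM with 47.7%.

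A few members scattered far more between libraries of the same group than the others. Among the 74 members averaging at least 5 CPM, 6 (8.11%) had a highest library at least 2 times the lowest within a group, against 2.51% of 11733 such genes. The median ratio of highest to lowest was 1.26 for members and 1.22 for all genes. Across members, this ratio had a Spearman correlation of 0.05 with the share of 100-base stretches found elsewhere. The 6 were Rpl26, Rpl35a, Rps18, Rpl21, Rps2 and Rps26. Rpsa (1.77) and Rps3a1 (1.71) came next below the limit.

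Rpl26, a tunnel-exit protein also known to bind p53 messenger RNA, was at 171.5, 56.3, 81.9 and 126.0 CPM in Model and 5.34, 5.33, 41.6 and 49 CPM in IsoL. All IsoL libraries were lower, and IsoL 1 and 2 were lower than IsoL 3 and 4. The log2 change of -2.08 had a 95% interval of -4.04 to -0.12 and did not pass (edgeR adjusted p = 0.35), though it passed in limma voom. Rpl35a was at 36.6, 71.9, 10.0 and 18.5 CPM in Model and 8.72, 10.3, 9.80 and 10.2 CPM in IsoL. Its scatter lay in Model alone, and the groups overlapped through Model 3 (log2 -1.81, edgeR adjusted p = 0.305).

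Rps18 was at 43.3, 7.70, 5.63 and 26.3 CPM in Model and 6.75, 4.87, 24.4 and 29.7 CPM in IsoL. Its high and low libraries were found in both groups, 2 and 2 in each. Rpl21 was at 8.95, 10.3, 30.3 and 23.1 CPM in Model and 16.0, 16.6, 6.70 and 7.06 CPM in IsoL. Rps26, which touches the messenger RNA at the exit channel, was at 36.4, 99.2, 48.0 and 39.7 CPM in Model and 60.4, 61.3, 35.5 and 30.2 CPM in IsoL. Rps2, at the entry channel, was at 94.3, 56.9, 24.0 and 54.5 CPM in Model and 88.6, 93.2, 63.6 and 52.1 CPM in IsoL. The sign of the Rps18 change turned without Model 1 (log2 0.33) and that of Rps26 without Model 2 (log2 0.17).

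In 5 of these genes (Rpl26, Rps18, Rpl21, Rps26 and Rps2) and in Rpl3, IsoL 1 and 2 lay together and apart from IsoL 3 and 4. They were lower in Rpl26, Rps18 and Rpl3 and higher in Rpl21, Rps26 and Rps2. IsoL 1 and 2 are also the libraries with 723.1 and 621.8 CPM of choroid plexus markers. This pairing of libraries was seen in the values, its order differs between genes, and it was not tested. Rpsa, also known as the laminin receptor, split differently, with 288.2, 236.2, 164.1 and 227.8 CPM in Model and 166.0, 286.7, 293.6 and 182.3 CPM in IsoL.

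**Figure D5:**
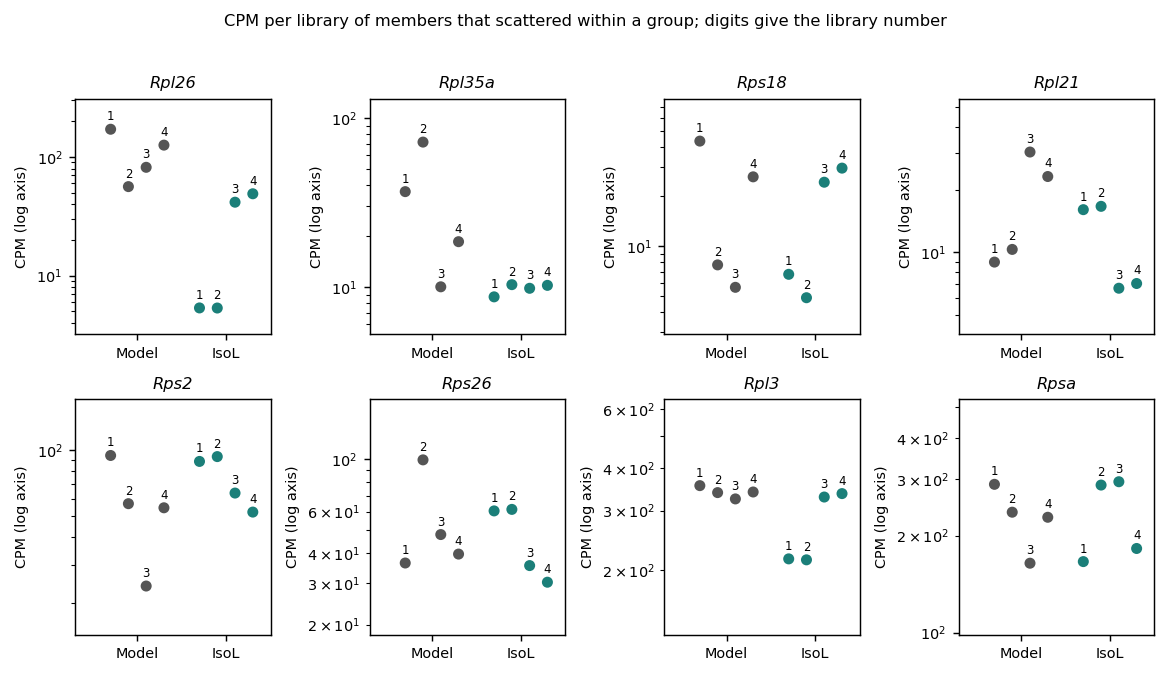
CPM per library (y axis, log scale; digits give the library number) for the 6 members with the widest scatter and for Rpl3 and Rpsa, Model in grey and IsoL in green. IsoL 1 and 2 are low in Rpl26 (5.34 and 5.33 CPM) and Rpl3 (215.9 and 214.5 CPM), and Rps18 has 2 high and 2 low libraries in each group.

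Gene lists that work beside the ribosomal proteins had medians nearer to 0. Of the other ribosomal subunit genes, Fau had a log2 change of -0.17 and Rack1 of -0.01. The 13 other TOP messenger RNAs had a median of -0.00, with Pabpc1, the poly(A)-binding protein, at 0.16 and Tpt1 at -0.11. Medians were 0.02 for 8 elongation factors, 0.00 for 36 initiation factors and 0.03 for 42 ribosome biogenesis genes, and 0 of these genes passed. The initiation helicase Eif4a1 was above Model in every IsoL library (log2 0.22, edgeR adjusted p = 0.11), and the initiation factor gene Eif1b was at -0.22. The elongation factor genes Eif5a and Eef1a2 were at -0.14 and 0.08, and the biogenesis genes Fbl and Polr1b at 0.21 and 0.16.

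In the mTOR and S6 kinase list, 1 of 25 genes passed. Ddit4, a stress-induced inhibitor of mTOR, fell, from 35.3 to 44.6 CPM in Model to 28.0 to 32.1 CPM in IsoL (log2 -0.47, edgeR adjusted p = 0.0381). The list's median was -0.03. The kinase genes Rps6kb1 and Rps6kb2 had log2 changes of -0.08 and 0.17.

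Mitochondrial ribosomal proteins (77 tested, 0 passed) had a median of -0.04, with Mrpl55 at -0.49 and Mrps26 at -0.21. Nuclear oxidative phosphorylation genes (81 tested) had a median of 0.00 and proteasome subunits (38 tested) of -0.01, and 0 of either passed. By library median, mitochondrial ribosomal proteins were also highest in Model 2 (0.134). So were the other ribosomal subunit genes (0.154), nuclear oxidative phosphorylation genes (0.065) and other TOP messenger RNAs (0.051). Model 2 was not the highest for proteasome subunits (-0.00), initiation factors (-0.00) or elongation factors (0.011). Nor was it for ribosome biogenesis genes (-0.05) or the mTOR and S6 kinase list (-0.031). Of the 7 listed -ps pseudogenes, Rpl9-ps6 and Rps18-ps5 were tested, with log2 changes of 0.10 and -0.08. Rps18-ps5 was at 5.38, 12.3, 7.10 and 7.61 CPM in Model and 8.78, 8.75, 6.96 and 6.28 CPM in IsoL, an order of libraries unlike that of Rps18.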

How the data were processed

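Per the labels' protocols, polyadenylated RNA was fragmented, primed at random and amplified with 15 PCR cycles, with no strand marking stated. Per the submitters' processing notes the tools were fastp 0.22.0, HISAT2 2.1.0 and HTSeq 0.9.1; the sources used here do not give build and annotation. The authors deposited read counts per gene and FPKM values in 1 table. The other deposited unit, gene length, was used only to describe it. The FPKM matched counts, gene length and library totals (largest relative difference 1.11e-09). FPKM served for levels and counts for all tests.

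Genes were kept with filterByExpr (14536), scaled with TMM and tested in edgeR 4.0.16 (R 4.3.3, robust quasi-likelihood, Benjamini-Hochberg over all genes, 0.05). DESeq2 1.42.0, limma 3.58.1 voom with quality weights, other scaling, no filter, a replicate block, a threshold of 0.1 and each library left out were alternatives. The test was checked on simulated data with 50 changed genes at each fold size. It recovered 38% of them at 1.25-fold, 76% at 1.5-fold and 98% at 2-fold. Of its 171 calls there, 16 were false. Libraries of a group all differed beyond sampling noise (chi-square per degree of freedom of at least 2.58).

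A few genes, the one that passed among them, are not reported by name here. Named otherwise are the members that passed, the 5 smallest p, 3 highest and 3 lowest by FPKM per subunit, members with a listed role, and 2 genes (or those that passed) per companion list. The scattered members were chosen after their values were seen. Members and lists were chosen with earlier results of these data known. Python 3.11.15 with matplotlib 3.10.9 drew the figures.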

Additional observations from a re-analysis of the deposited data

Results flagged for a closer look

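In 164 sets of 4 libraries (each tested member in each group, and the shares), 16 had a library set apart from the other 3. The limit was Dixon's 95% limit, which chance passes in about 1 of 20 independent sets. These sets come from the same 8 libraries and are not independent, so the count of 16 cannot be set against that rate. Of the 16, 15 are given here, and in 9 the library was Model 2. It was the highest Model library for Rpl10 (251.0 CPM), Rpl22l1 (8.89 CPM), Rpl35 (6.51 CPM), Rpl37a (74.9 CPM), Rpl39 (34.1 CPM), Rplp0 (119.7 CPM), Rps13 (83.2 CPM) and Rps24 (353.2 CPM), and the lowest for Rpl7a (109.8 CPM). IsoL 1 was the lowest IsoL library for Rpl22l1 (4.54 CPM), Rpl31 (94.8 CPM) and Rpl9 (203.3 CPM). IsoL 3 was the highest for Rpl19 (34.4 CPM) and Rpl35 (5.19 CPM). Model 4 was the lowest for Rps10 (1.77 CPM).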

How the results depend on the processing

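The count of members that passed, 1 in edgeR, was 3 in DESeq2 (Rpl7l1 and Rplp0 among them), 4 in limma voom (Rpl7l1, Rplp0 and Rpl26 among them), 3 at an adjusted p of at most 0.1, and 0 to 2 with a library left out. Over all genes, 40 passed in edgeR, 311 in DESeq2, 175 in limma voom, 74 with no filter on low counts, and 6 to 146 with a library left out. Members with an unadjusted p under 0.05 numbered 10 to 19 with a library left out. The members' median log2 change stayed below 0 in every alternative, from -0.136 to -0.033, and members below 0 ranged from 55 (limma voom) to 77 (no filter, 86 tested). Restricting to members without a wide spread gave -0.09, an alternative added after seeing the data, as were the limit on shared stretches (-0.101) and the principal transcript length (149.1-fold range of levels in place of 308.4). The sign turned for Rps18 without Model 1 (0.33, and -0.79 to 0.33 over all libraries left out) and for Rps26 without Model 2 (0.17, and -0.42 to 0.17); the cause was not tested. Same-numbered libraries of the 2 groups correlated by 0.0199 to 0.0696 in deviations from their group means, and others by -0.139 to 0.143. These deviations balance out within each group, so the values cannot settle whether same-numbered libraries share more than a number. With the replicate block 1 member and 17 genes in all passed, the median was -0.089 and 76 members were below 0. Not every library correlated best with its own number. With 4 libraries a group, a member that did not pass may still differ.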
